A study of Homo sapiens with 6 samples.

Results

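The 10 genes described here lie at the core of Wnt signalling and were followed in SW403 cells with and without knockdown of IRS2: CTNNB1, which encodes beta-catenin, 5 genes of the complex that destroys it (APC, AXIN1, GSK3A, GSK3B and CSNK1A1), and the 4 TCF and LEF transcription factor genes through which it acts (TCF7, TCF7L1, TCF7L2 and LEF1). They were taken by symbol from the deposited count table, which held 26490 gene symbols. All 10 were found, and all 10 were among the 13832 genes that passed the low-count filter. SW403 is an established human colon adenocarcinoma line. The control group (3 libraries, genotype WT) and the knockdown group (3 libraries, genotype IRS2_knockdown) were both grown for 24 h in DMEM with 10% fetal bovine serum and received no treatment. IRS2 encodes an adaptor of the insulin and IGF1 receptors. The titles call the libraries biological replicates (bio_rep). They say knockdown, while the descriptions of the same libraries carry IRS2KO, and those of the controls NS. The labels do not say how IRS2 was lowered, or whether a group came from 1 clone or from separately made lines. The p-values therefore measure the spread between these libraries, which may not cover the spread between separately made lines. The comparison asks which of these 10 genes differed when IRS2 was lowered.

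In the absence of a Wnt signal, the scaffolds AXIN1 and APC hold beta-catenin while casein kinase 1 alpha and then GSK3 phosphorylate it, which marks it for ubiquitination and breakdown. When the complex is blocked or disabled, as happens through loss of APC function in most colorectal tumours, beta-catenin accumulates, enters the nucleus and binds TCF and LEF proteins on DNA. These proteins recruit TLE corepressors without beta-catenin and activators with it. Most of this control acts on protein stability and phosphorylation, which read counts do not measure, and gene-level counts do not show whether an APC transcript encodes the full protein.

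All 4 TCF and LEF genes rose in knockdown, by 1.22-fold (LEF1) to 1.34-fold (TCF7). In the complex, APC rose 1.22-fold, CTNNB1 itself fell by 6.5%, and AXIN1, GSK3A, GSK3B and CSNK1A1 did not pass the threshold. A gene was called when its adjusted p in edgeR's quasi-likelihood test, with Benjamini-Hochberg adjustment over all tested genes, was under 0.05. In this comparison 38.5% of all tested genes were called, 19.3% as higher and 19.2% as lower, and 5 of the 10 genes were higher and 1 was lower. That even split of all calls depended on the scaling: 50.2% of calls were higher as fitted, 43.9% with upper-quartile factors and 40.8% with library size alone. The CPM values (counts scaled by the library total) of the groups did not overlap for 8 of the 10 genes, against 48.4% of all tested genes. They lay higher in knockdown for 5, against 19.6%, and lower for 3, against 28.8%. CPM leaves out the scaling factors of the edgeR fit, so this split into higher and lower can depend on the scaling too. With library size alone, the median log2 fold change of all tested genes was -0.035, against -0.004 as fitted. In bulk RNA, a change in how many cells express a gene and a change in RNA per cell cannot be told apart.

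**Figure D1:**
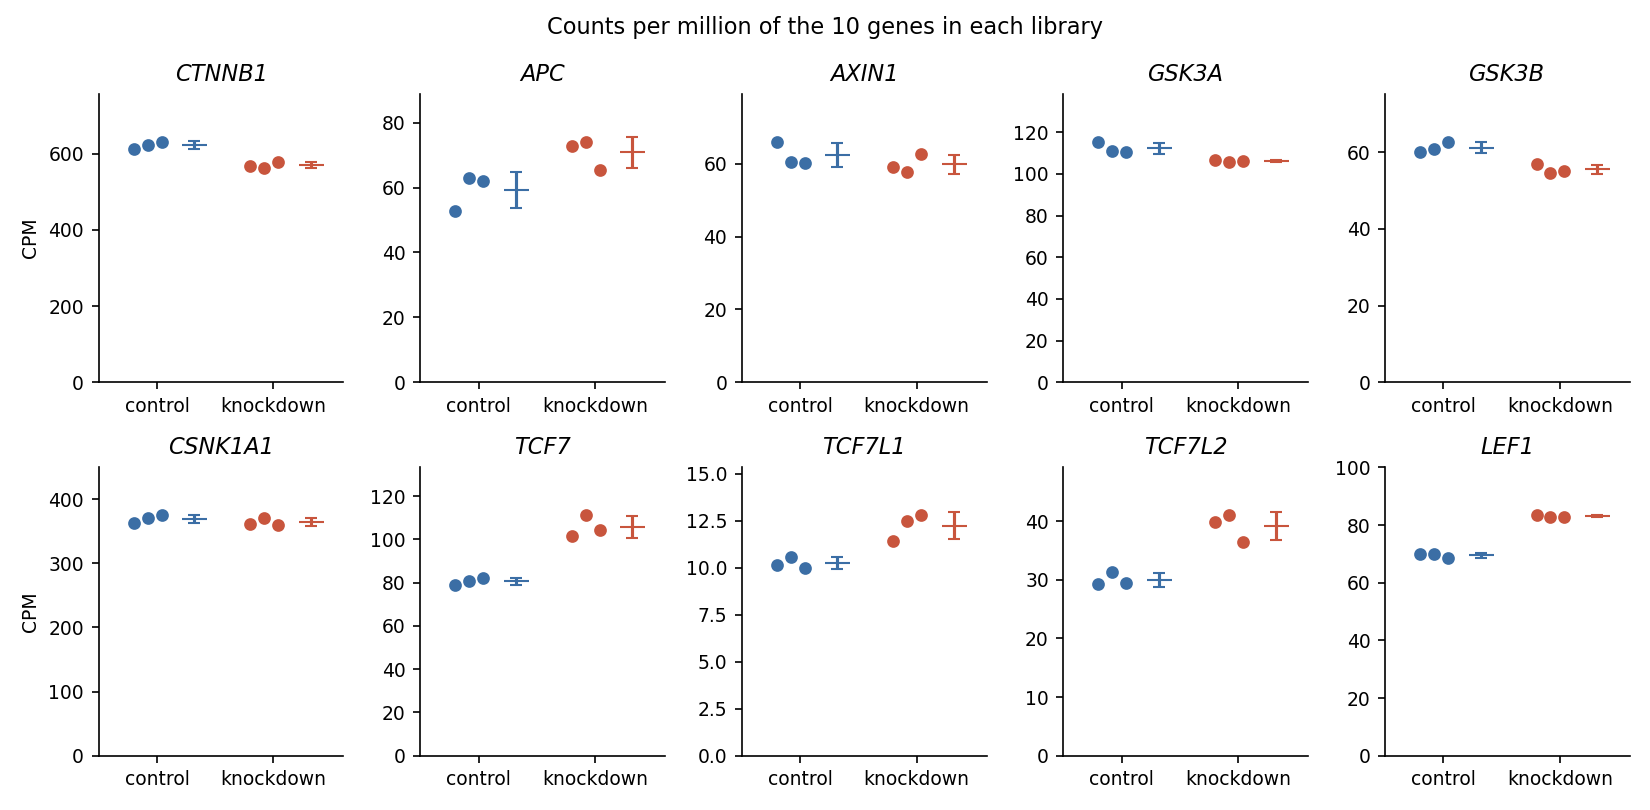
Each panel plots the CPM of 1 gene (y axis, from 0) in the 3 control (blue) and 3 knockdown (red) libraries, with the group mean and SD beside the points. The red points lie above the blue ones for APC and for the 4 TCF and LEF genes, while those of AXIN1 and CSNK1A1 overlap.

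The control libraries held 11816973 to 12585013 counts and the knockdown libraries 14329348 to 18114656, so every knockdown library was the deeper. In counts thinned to the smallest library, 6 of the 10 genes were called, but not the same 6. TCF7L1 lost its call (edgeR adjusted p 0.0823) and GSK3B was called lower (0.0338). IRS2 stood at 32.2 to 34.8 CPM in control and 11.9 to 13.0 CPM in knockdown (log2 fold change -1.39 ± 0.07 SE, edgeR adjusted p 3.12e-11), in the direction of its labels. Of 9 colon epithelial markers, KRT8, KRT18, KRT19, EPCAM, CDX2 and VIL1 were expressed highly enough to be tested, KRT20 and CDX1 had no count, and CDH1, the E-cadherin gene, had 0 to 5 counts a library. The epithelial markers summed to 2536 to 2637 CPM in control and 2364 to 2456 in knockdown, with CDX2 called higher and EPCAM and KRT19 lower. Most of that sum came from the keratin genes KRT8 and KRT18, at 1106 and 1131 CPM in control. There KRT19 was at 230 CPM, CDX2 at 77.7, EPCAM at 40.2 and VIL1 at only 4.34. The 5 leukocyte markers summed to at most 1.82 CPM and the 4 endothelial markers to at most 0.876 CPM, with PECAM1 and CDH5 at 0. The 7 fibroblast markers summed to 9.56 to 28.1 CPM in control and 5.98 to 7.40 CPM in knockdown, with COL1A1 and COL3A1 called lower and none at 0 in all libraries. The highest fibroblast sum was in control replicate 1. Without that library 5 of the 10 genes were called, and leaving out any other single library gave 4 to 6. The part of these marker differences in the results was not tested.

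TCF7 encodes TCF1, a factor that is itself switched on by beta-catenin in the intestine. It lies on chromosome 5 (GRCh37, chr5:133450372-133487556). TCF7 was at 79.0, 80.9 and 81.9 CPM in the control libraries and at 101, 111 and 104.5 CPM in the knockdown libraries. Every knockdown library was above every control library, and the gap between the groups was wider than the range within either. The log2 fold change was 0.42 ± 0.04 (SE), a 1.34-fold rise with a 95% interval of 1.26 to 1.43 and an edgeR adjusted p of 3.09e-07. TCF7 had the smallest p-value of the 10 genes and ranked 380 of all tested genes.

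TCF7L2 encodes TCF4, the main partner of beta-catenin in the intestinal crypt (chr10:114710006-114927437). Its values were 29.2, 31.3 and 29.4 CPM in control and 39.9, 41.0 and 36.5 CPM in knockdown, again without overlap. The rise was 1.33-fold (95% interval 1.22 to 1.455, log2 fold change 0.41 ± 0.06 SE, edgeR adjusted p 2.65e-05). LEF1, a factor that is scarce in normal colon epithelium and appears in colorectal tumours, lies at chr4:108968701-109090112. It showed the tightest groups of the family, 69.9, 70.0 and 68.55 CPM in control against 83.5, 82.7 and 82.9 CPM in knockdown. LEF1 rose 1.22-fold (95% interval 1.149 to 1.295, log2 fold change 0.29 ± 0.04 SE, edgeR adjusted p 1.75e-05).

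TCF7L1 encodes TCF3, a family member best known as a repressor (chr2:85360515-85537510), and it was the lowest of the family. It had 118 to 133 counts in control and 164 to 232 in knockdown libraries, or 10.2, 10.6 and 9.99 CPM against 11.45, 12.5 and 12.8 CPM. The groups did not overlap, and the gene rose 1.22-fold with a wide 95% interval of 1.065 to 1.405 (log2 fold change 0.29 ± 0.10 SE, edgeR adjusted p 0.0213). This call was the least firm of the family. It was lost without control replicate 1 or 3 or knockdown replicate 2 or 3 (adjusted p 0.0584 to 0.0706), in counts thinned to the smallest library (0.0823) and in the Wald test of DESeq2 (0.164), while its log2 fold change stayed between 0.23 and 0.34.

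Because the 4 factors bind the same DNA words, their balance was examined per transcript length. With the canonical transcript as length, TCF7 was at 24.5 ± 0.453 RPKM (CPM per kilobase of transcript), LEF1 at 19.4 ± 0.227, TCF7L2 at 7.35 ± 0.281 and TCF7L1 at 3.43 ± 0.103 in control (SD, n = 3 each). In knockdown they were at 32.1 ± 1.52, 23.2 ± 0.106, 9.60 ± 0.579 and 4.10 ± 0.238 RPKM (SD, n = 3 each). The levels of TCF7 and LEF1 were thus above those of TCF7L2 and TCF7L1 in both groups, by more than the spread. The order of the first pair depended on the length used: over the union of all annotated exons LEF1 took 46.8% and TCF7 28.8% of the 4 in control, and 44.9% and 30.3% in knockdown.

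The make-up of the family differed little in size between the groups. TCF7 made up 44.8% ± 0.705 of the family in control and 46.5% ± 1.01 in knockdown, and LEF1 35.5% ± 0.533 and 33.6% ± 1.01 (SD, n = 3 each). TCF7L2 went from 13.4% ± 0.371 to 13.9% ± 0.690 and TCF7L1 from 6.27% ± 0.141 to 5.94% ± 0.323 (SD, n = 3 each). The LEF1 shares of the groups did not overlap, and those of TCF7, TCF7L1 and TCF7L2 did. No share differed past the threshold in the exact two-sided permutation test (p 0.1 for LEF1, 0.2 for TCF7 and TCF7L1, 0.4 for TCF7L2, and 0.267 or 0.4 after adjustment over the 4), but 3 libraries against 3 cannot give a p below 0.1. Summed over the 4 genes, the libraries had 188, 193 and 190 CPM in control and 236, 247 and 237 CPM in knockdown. For every 100 reads of CTNNB1 there were 30.7, 30.9 and 30.1 TCF and LEF reads in control and 41.6, 43.9 and 40.9 in knockdown, a ratio that no scaling of the libraries can change.

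**Figure D2:**
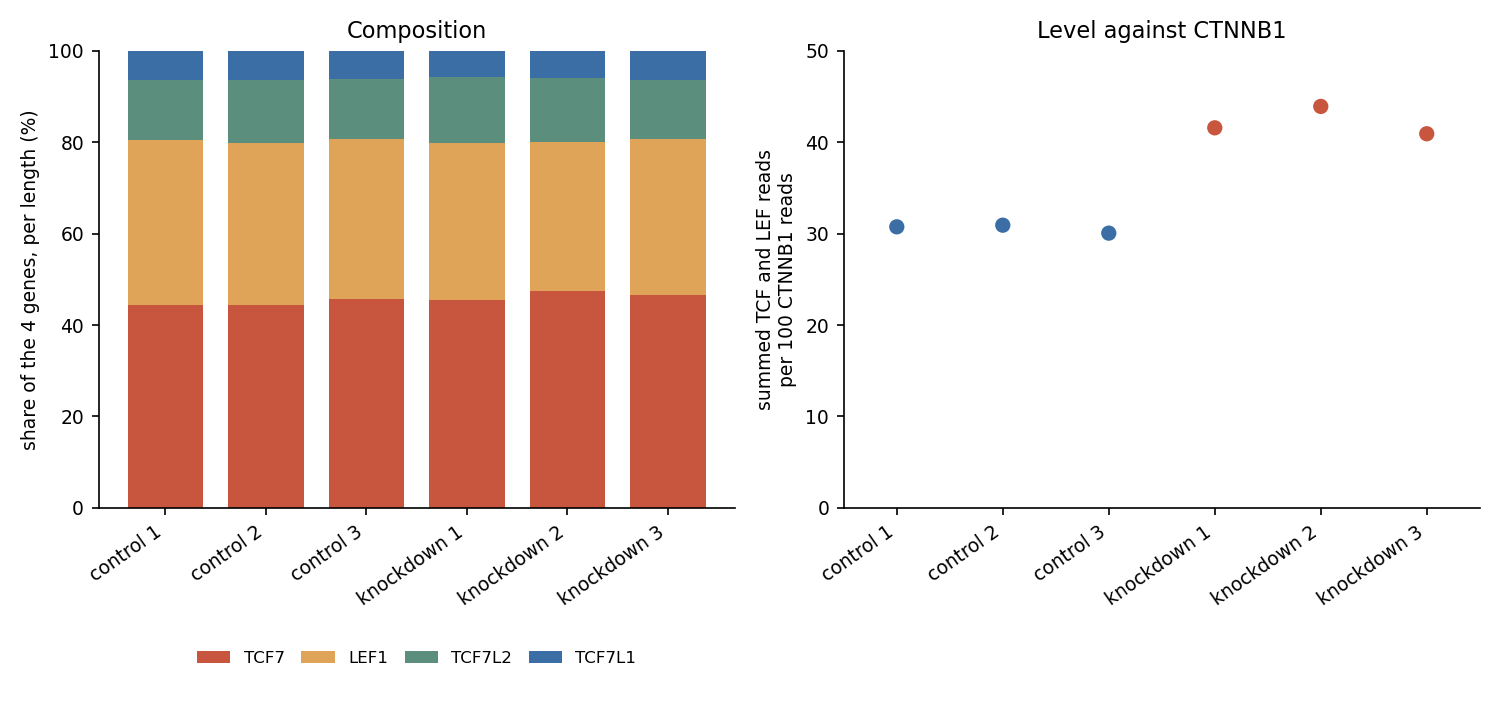
The left panel stacks the share of each TCF and LEF gene (y axis, percent of the 4, per canonical transcript length) in each of the 6 libraries, and the right panel plots summed TCF and LEF reads per 100 CTNNB1 reads (y axis, from 0). The mean share of each gene differs by at most 1.87 percentage points between the groups, while the ratio to CTNNB1 is 30.1 to 30.9 in control and 40.9 to 43.9 in knockdown.

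TCF and LEF proteins recognise a short DNA core, and some TCF genes are themselves controlled through it. The words CTTTGAT and CTTTGTT were searched on both strands within 1000 bases of the start of the canonical transcript, in GRCh37. CTTTGAT occurred near 3 of the 10 genes, against 14.8% of 13250 tested genes with such a window, and CTTTGTT near 3, against 25.6%. Either word occurred near 5 of the 10 genes, against 36.2%. The windows closest to the start site are shown for the genes that rose and had a word, followed by CSNK1A1, which had a word and was not called, in the direction of the gene and with the core in capitals (ATCAAAG and AACAAAG are the 2 words read on the other strand).
TCF7: gccggcggcgcCTTTGATgttccgacccg
TCF7L1: gccctgtcaaaCTTTGTTgcggcggctag
LEF1: ctcgagccgggAACAAAGaggggtcggac
APC: gggtagaggacAACAAAGaatggagcata
CSNK1A1: ccagaagaaagATCAAAGgttaaaaaccg
The TCF7 core is centred 19 bases after the start, in the 5′ UTR (chr5:133450377-133450405, plus strand). That of TCF7L1 lies 175 bases after it, also in the 5′ UTR (chr2:85360676-85360704, plus strand), and that of LEF1 248 bases after it in the 5′ UTR (chr4:109089826-109089854, minus strand). The APC window, 1 of 4 matches near that gene, lies in an intron, 391 bases after the start (chr5:112073959-112073987, plus strand), and that of CSNK1A1 lies 379 bases upstream (chr5:148931367-148931395, minus strand). TCF7L2, CTNNB1, AXIN1, GSK3A and GSK3B had neither word within 1000 bases. In the shorter RefSeq promoter windows of 300 bases (GRCh38.p14), which matched all 10 genes, none of the 10 had either word, against 2.64% of 27305 promoters with CTTTGAT and 5.28% with CTTTGTT. The TCF7 word 19 bases after the canonical start was thus not in its RefSeq window, so the 2 searches need not share a start site. The words found are matches of letters, and factor binding was not measured.

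CTNNB1 had by far the most counts of the 10 genes, 7465 to 10479 a library (chr3:41236232-41301587). It was at 613, 623 and 632 CPM in control and at 568, 563 and 578.5 CPM in knockdown. The groups did not overlap, and every knockdown library was the lower. In the edgeR fit the fall was small, 6.5%, with a 95% interval from -10.2% to -2.59% (log2 fold change -0.10 ± 0.03 SE, adjusted p 0.0102). The call was lost without control replicate 2 (adjusted p 0.0612) or knockdown replicate 2 (0.0676). The sign was negative in all 19 alternative fits, with log2 fold changes from -0.13 to -0.09.

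The scaffolds differed from each other. APC (chr5:112043215-112181936), the large scaffold whose function is lost in most colorectal tumours, was at 52.8, 62.8 and 62.0 CPM in control and at 72.9, 74.2 and 65.5 CPM in knockdown. Control replicate 1 was low and knockdown replicate 3 was close to the controls, yet the groups did not overlap. APC rose 1.22-fold (95% interval 1.12 to 1.33, log2 fold change 0.29 ± 0.06 SE, edgeR adjusted p 0.000952), and the smallest log2 fold change, 0.21, came from leaving out control replicate 1. AXIN1, the scaffold usually present in limiting amount (chr16:337440-402723), was at 66.1, 60.5 and 60.3 CPM in control and at 59.25, 57.7 and 62.7 CPM in knockdown. These groups overlapped, the edgeR adjusted p was 0.726, and the 95% interval of the change ran from -8.82% to 5.75%.

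Of the kinases, CSNK1A1 encodes casein kinase 1 alpha, which adds the first phosphate to beta-catenin (chr5:148872545-148931034). It was at 362, 371 and 375 CPM in control and at 361, 371 and 360 CPM in knockdown, and the groups overlapped. Its edgeR adjusted p was 0.845 and the 95% interval of its change, from -3.64% to 5.06%, was the narrowest among the genes not called. GSK3A and GSK3B encode the paralogous kinases GSK3 alpha and GSK3 beta. GSK3A (chr19:42730377-42746777) was at 115.5, 111 and 110 CPM in control and 107, 106 and 106 CPM in knockdown, without overlap, but the difference did not pass the threshold (edgeR adjusted p 0.315, 95% interval -8.58% to 1.98%). GSK3B (chr3:119540168-119813841) was at 60.15, 60.7 and 62.8 CPM in control and 56.9, 54.55 and 55.15 CPM in knockdown.

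GSK3B was the gene nearest to the threshold. Its groups did not overlap and its log2 fold change was -0.11 ± 0.05 (SE), with an edgeR adjusted p of 0.0595. Under 6 of 19 alternative fits it was called lower, with adjusted p-values from 0.00519 to 0.034 in those, and its log2 fold change ran from -0.16 to -0.09 over all 19. The ratio of GSK3B to GSK3A did not separate the groups: the log2 ratio per transcript length was -2.69 ± 0.0649 in control and -2.755 ± 0.0249 in knockdown (SD, n = 3 each, exact two-sided permutation p 0.2, where 0.1 is the lowest possible). GSK3A stood at 51.2 ± 1.32 RPKM and GSK3B at 7.91 ± 0.179 RPKM in control (SD, n = 3 each), so GSK3A was the higher of the pair per length.

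**Figure D3:**
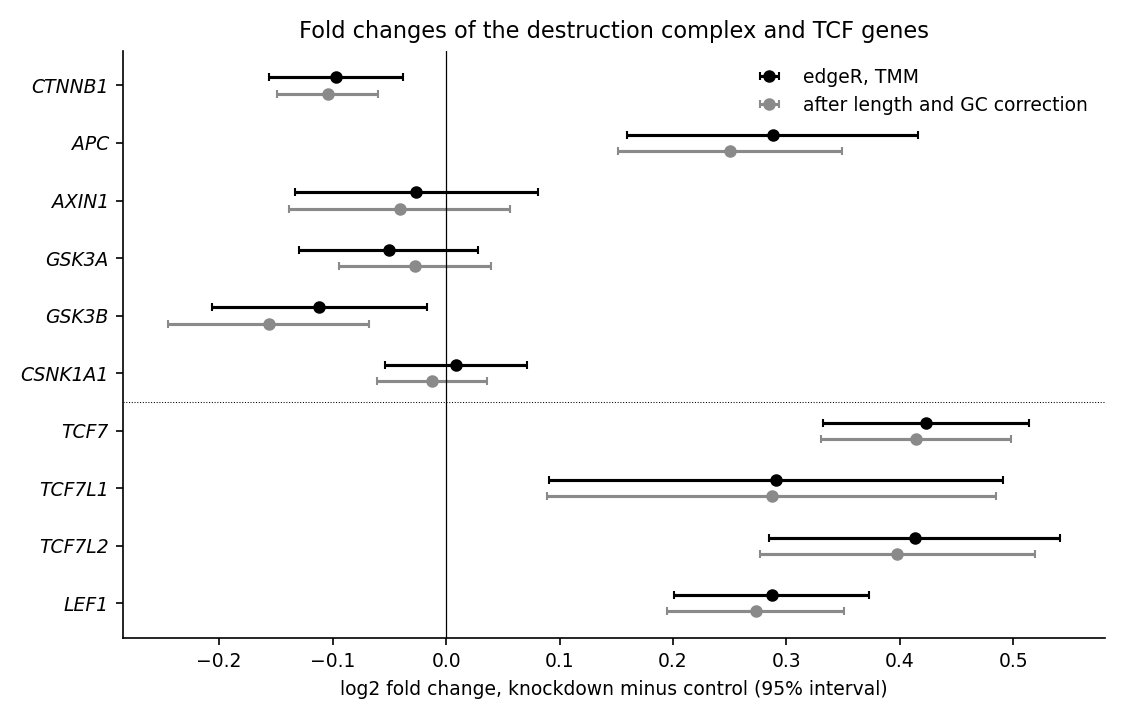
The x axis gives the log2 fold change, knockdown minus control, with its 95% interval, not adjusted for the number of genes, for each gene on the y axis, in edgeR with TMM scaling (black) and after correction for transcript length and GC content (grey). The 4 genes below the dotted line and APC lie wholly to the right of 0, CTNNB1 and GSK3B lie to the left, and the intervals of AXIN1, GSK3A and CSNK1A1 include 0.

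Longer transcripts tended to have higher fold changes in these libraries. Among the 8839 genes whose mean count was 200 or more, Spearman's correlation of log2 fold change with canonical transcript length was 0.24. It is taken across genes, and genes are not independent replicates. The median log2 fold change was -0.04 in the shortest of 5 equal bins by length and 0.07 in the longest, from 5927 nt upward, which holds both APC (10704 nt) and GSK3B (7743 nt). CTNNB1, AXIN1, TCF7, TCF7L2 and LEF1 fall in the middle bin, with a median of 0.02. After a correction that took the correlation to 0.00, APC had a log2 fold change of 0.25 (edgeR adjusted p 0.000183), TCF7 of 0.41, TCF7L2 of 0.40, LEF1 of 0.27, TCF7L1 of 0.29 and CTNNB1 of -0.10, and all 6 were called. GSK3B was at -0.16 and was then called as well (adjusted p 0.00519). AXIN1, GSK3A and CSNK1A1 were not.

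**Figure D4:**
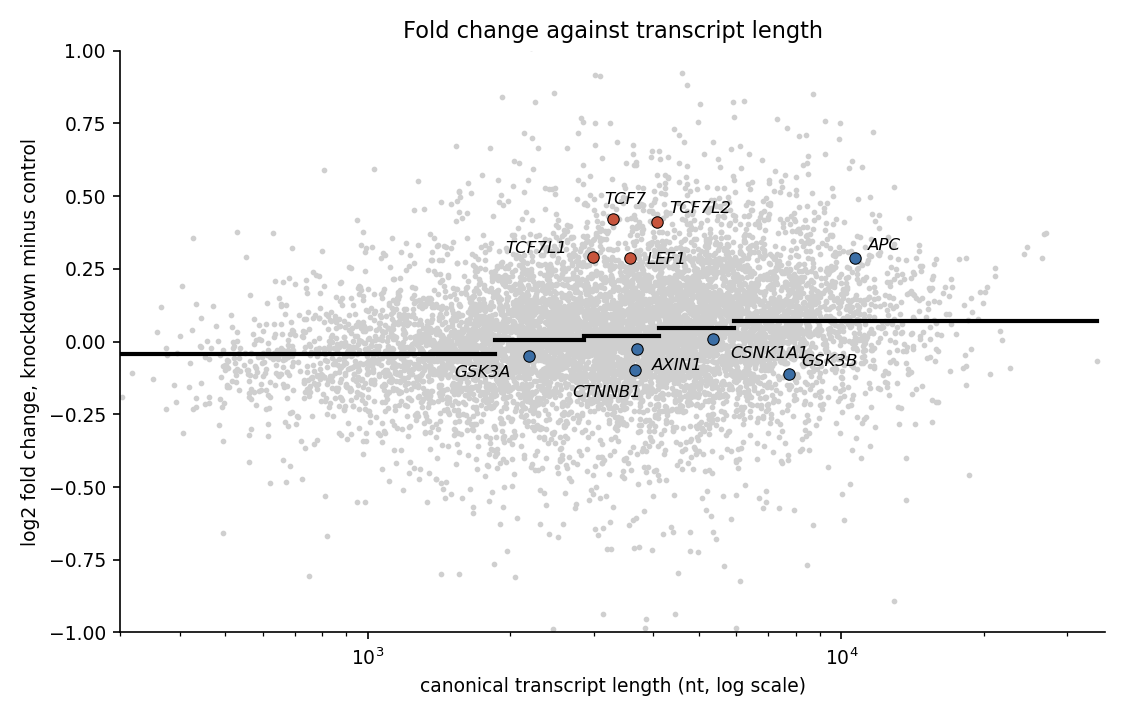
The x axis is canonical transcript length (nt, log scale) and the y axis the log2 fold change, knockdown minus control. Grey points are genes whose mean count was 200 or more (37 lie beyond the y range and 4 below the x range), black bars the median of each of 5 bins by length, blue points CTNNB1 and the complex, and red points the TCF and LEF genes, of which TCF7L1 has a lower mean count. APC and GSK3B are both long and lie on opposite sides of the median of their bin.

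Some exons of these genes overlap other genes, and whether counting used the strand is not given in the sources used here. TCF7 shares 210 nt of exon with SKP1 on the opposite strand. SKP1 had 3357 to 5210 counts a library and was not called (log2 fold change 0.04, edgeR adjusted p 0.332). Per canonical length, SKP1 was at 29.6 RPKM and TCF7 at 24.5 in control, and at 29.9 and 32.1 in knockdown. LEF1 shares 279 nt with LEF1-AS1, which had 28 to 42 counts a library. GSK3A shares 197 nt with ZNF526, which had 307 to 459 counts. On the same strand, where strand cannot separate reads, CSNK1A1 shares 4194 nt with an unnamed lncRNA gene, and GSK3A shares 479 and 93 nt and APC 230 nt with unnamed protein-coding genes.

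The rest of the pathway was described by role, from lists of genes. Of 32 partners and paralogues of the destruction complex and its ubiquitin ligase, 29 were tested, and 9 were higher and 2 lower (37.9% called, close to the 38.5% of all tested genes, with a median log2 fold change of 0.04 against 0.00). AXIN2, the inducible paralogue of AXIN1 and a direct target of beta-catenin, was at 430 ± 6.30 CPM in control and 463 ± 9.13 in knockdown (SD, n = 3 each). In the edgeR fit it rose 1.10-fold (adjusted p 0.000932). Per length it stood well above AXIN1, at 100.9 ± 1.48 against 16.8 ± 0.887 RPKM in control (SD, n = 3 each). TNKS2, which encodes a tankyrase that marks axin for breakdown, rose 1.29-fold (adjusted p 2.36e-06). AMER1, which encodes a membrane scaffold for APC, rose 1.28-fold (adjusted p 0.000917), and CUL1, a subunit of the ubiquitin ligase, rose 1.14-fold (adjusted p 0.000218). The 2 lower genes were CSNK1E, another casein kinase 1 gene (0.863-fold, adjusted p 0.000193), and RBX1, the RING subunit of the ligase (0.910-fold, adjusted p 0.0334). The call of RBX1 was lost after the length and GC correction (adjusted p 0.314) and without control replicate 2 or 3 or knockdown replicate 1 or 2 (0.0765 to 0.122). APC2, the paralogue of APC, had 40 to 65 counts and was not called (edgeR adjusted p 0.435).

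The cofactors of TCF on chromatin split in both directions. All 27 were tested, 6 were higher and 8 lower (51.9% called, against 38.5% of all tested genes), and the median log2 fold change was 0.01. The TLE genes, whose full-length products are corepressors that bind TCF and LEF directly, went different ways. TLE1 fell from 10.4 ± 0.627 to 3.72 ± 0.282 CPM (SD, n = 3 each), a log2 fold change of -1.45 ± 0.13 (SE, edgeR adjusted p 5.74e-08). TLE5, a truncated family member, fell from 89.2 ± 2.17 to 59.6 ± 2.15 CPM (SD, n = 3 each, adjusted p 1.27e-08). TLE3, the most abundant of the 5 per length after TLE5 in control, rose from 210 ± 0.979 to 247 ± 6.75 CPM (SD, n = 3 each, adjusted p 2.63e-06). TLE4, named after its values were seen, fell to 0.777 of its control level (adjusted p 3.16e-05), and TLE2 was not called (adjusted p 0.409). HDAC1, a histone deacetylase of corepressor complexes, fell to 0.801 of its control level (adjusted p 2.97e-07). BCL9L, which links beta-catenin to the PYGO activators, rose 1.15-fold (adjusted p 0.00034), and TNIK, a kinase that phosphorylates TCF4, rose 1.235-fold (adjusted p 0.00105). PYGO1, named after its values were seen, fell from 4.41 ± 0.124 to 1.62 ± 0.0490 CPM (SD, n = 3 each, adjusted p 8.80e-06), while the more abundant PYGO2 was not called (adjusted p 0.265).

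Among 19 receptor and dishevelled genes, all tested, 7 were higher and 4 lower (57.9% called, against 38.5% of all tested genes), with a median log2 fold change of 0.09. LRP5, a co-receptor that recruits axin to the membrane, rose 1.24-fold (edgeR adjusted p 1.08e-05). FZD7, a Wnt receptor, rose 1.23-fold (adjusted p 0.000389) and ROR1, a receptor of noncanonical Wnt signals, 1.37-fold (adjusted p 0.00109). LGR4, a receptor for R-spondins, fell to 0.676 of its control level (adjusted p 0.000209), RYK to 0.902 (adjusted p 0.0106) and FZD2 to 0.682 (adjusted p 0.0185). The call of FZD2 was lost without control replicate 2 or 3 or knockdown replicate 1 or 2 (0.0559 to 0.102), and in the Wald test of DESeq2 both FZD2 (0.117) and RYK (0.108) lost it. FZD8, named after its values were seen, had 55 to 62 counts in control and 19 to 35 in knockdown (log2 fold change -1.48 ± 0.22 SE, adjusted p 2.29e-05).

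Of 25 genes for ligands, R-spondins and Wnt secretion, 12 were tested, 4 were higher and 1 lower (41.7% called, close to the 38.5% of all tested genes). WNT5A, usually a noncanonical ligand, was the most abundant ligand per length among those named and rose from 259 ± 11.3 to 306 ± 10.4 CPM (SD, n = 3 each, edgeR adjusted p 7.47e-06). WNT6 rose 1.55-fold (adjusted p 0.00121) and WNT16 1.45-fold (adjusted p 0.01, and 0.0557 without knockdown replicate 1). WNT9A was lower at 0.736-fold (adjusted p 0.0390), a call that was lost when any 1 of the 6 libraries was left out (0.0569 to 0.148).

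Target genes of beta-catenin and TCF were called more often as higher than as lower. Of 33 such genes, with TCF7 and LEF1 left out, 32 were tested, and 16 were higher and 6 lower (68.8% called, against 38.5% of all tested genes, of which 19.3% were higher and 19.2% lower). The median log2 fold change of the list was 0.13. AXIN2 was in this list and in that of the complex partners, so its call counts in both. DKK4, a secreted Wnt inhibitor, ranked 1 by p-value over the whole table (log2 fold change 1.46 ± 0.04 SE, edgeR adjusted p 1.16e-14). LGR6, a receptor of the R-spondin family, rose from 8.68 ± 0.607 to 20.5 ± 1.55 CPM (SD, n = 3 each, adjusted p 3.40e-09), and CCND1, the cyclin D1 gene, rose 1.42-fold (adjusted p 7.16e-11). SOX4 (0.738-fold, adjusted p 5.64e-07), MSX1 (0.799-fold, adjusted p 7.16e-07) and BIRC5 (0.841-fold, adjusted p 1.45e-05) were the lower genes with the smallest p-values. The other 10 tested targets were not called. Among them, named after their values were seen, were LGR5 (edgeR adjusted p 0.24), ASCL2 (0.123) and CD44 (0.619). The targets were known from earlier work on these data to be higher, so their count is not independent evidence of that direction.

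**Figure D5:**
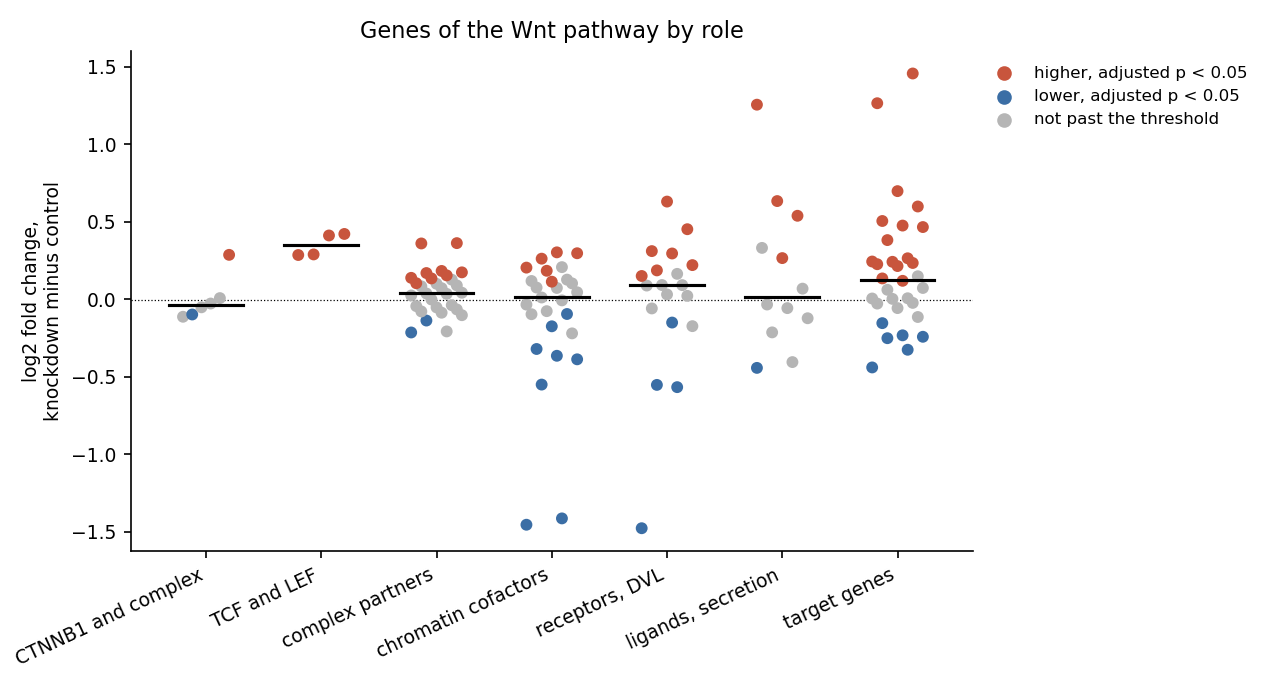
Each point is a tested gene of the Wnt pathway, grouped by role on the x axis, with its log2 fold change (knockdown minus control) on the y axis. Red and blue mark genes called higher and lower in edgeR, grey the rest, black bars the group medians, and the dotted line the median of all tested genes. The TCF and LEF median is 0.35, the highest of the 7 groups, and that of CTNNB1 and its complex is -0.04.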

How the data were processed

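Total RNA from 6 SW403 cultures was sequenced as Illumina libraries. The authors deposited whole-number read counts per gene symbol, and a second table whose values are a normalized signal: in each library, the deposited signal equals the counts divided by 1 constant. STAR 2.6.1a, Salmon, DESeq2 and hg19 are named in the submitters' processing notes, and the counting step, annotation and strand setting are not given in the sources used here. Counts were tested with edgeR 4.0.16 in R 4.3.3 (TMM factors, filterByExpr, quasi-likelihood test, group as the only term, all 6 libraries), with p-values adjusted over all tested genes and a threshold of 0.05. The SE was derived from the log2 fold change and its F statistic. CPM uses library totals, and RPKM was computed here from counts and GENCODE transcript lengths on GRCh37. Fold changes and percent changes come from the fit with TMM factors, so they can differ from ratios of the printed CPM.

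The genes and lists were chosen with earlier results of these data known. Named genes were IRS2, the 10 core genes, AXIN2, and up to 3 higher and 3 lower called genes per list with the smallest p-values and a mean of at least 50 counts. Alternatives were other scalings and filters, DESeq2 1.42.0, limma 3.58.1 (voom, and log2 of the deposited signal plus 1), thinned counts, a length and GC correction, a replicate block, a threshold of 0.01 and leaving out each library. The length and GC trend was fitted on genes averaging 200 or more counts, chosen after the data were seen because a fit on all genes left the trend in place; 95.8% of tested genes had a length. The window of 1000 bases for the word search was also chosen after the data were seen. The edgeR fit was tested on simulated counts with 65 to 67 changed genes at each size of change, far fewer than were called here. It recovered 56.7% of genes with an absolute log2 fold change of 0.3 and 85.1% of those with 0.5. Intervals cover the spread between libraries, and PCR-amplified reads are not independent molecules.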

Additional observations from a re-analysis of the deposited data

How the results depend on the processing

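Over 20 alternatives, 184 of 200 values for the 10 genes lay on the same side of the threshold as the reported value, 10 lost the call and 6 gained it, and no called gene changed sign. The lost and gained calls were in 3 genes. GSK3B was called lower with upper-quartile factors (-0.132), library size alone (-0.142), a mean of at least 50 counts (-0.125), thinned counts (-0.137), and the length and GC correction without (-0.156) and with the replicate block (-0.157). TCF7L1 was not called in the Wald test of DESeq2 (0.297), in thinned counts (0.233) or at a threshold of 0.01 (0.291), nor in 4 of the 6 fits without 1 replicate; all 6 gave 0.253 to 0.337. CTNNB1 was not called at 0.01 (-0.097) or in 2 of the 6 fits without 1 replicate; all 6 gave -0.111 to -0.085. Fits without 1 replicate called 4 to 6 of the 10 genes and 4319 to 5256 genes in all, against 5329. The Wald test of DESeq2 called 3559 genes.

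Without 1 replicate, the ligand list had 3 to 5 called genes, and it had 3 under the Wald test of DESeq2 and 3 at 0.01. Of 580 values for the other 29 named genes, 33 lost the call and 0 changed sign; in the Wald test of DESeq2 these included RBX1 (adjusted p 0.225), WNT16 (0.0673) and WNT9A (0.236). Library size alone moved the median of all genes from 0.00 to -0.035 on the log2 scale, and turned the medians of the cofactor list (-0.02) and the ligand list (-0.01) negative, as upper-quartile factors did (-0.008 and -0.002). AXIN1 and CSNK1A1 were not called in any fit; of 19 alternative fits, AXIN1 was positive in 2 and CSNK1A1 negative in 7.

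The titles number the replicates 1 to 3 in both groups. When group means were removed, libraries with a shared number correlated at 0.04, -0.01 and -0.10, so the numbers were not taken to pair the samples. With the replicate number as a block, 6 of the 10 genes and 4862 genes in all were called, and the adjusted p was 3.49e-06 for TCF7, 0.0362 for TCF7L1 and 0.0323 for CTNNB1. TCF7L1 had the fewest counts of the 10 genes, 118 to 232 a library, and the widest interval.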
